A study of Mus musculus with 8 samples.

Results

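The mouse microRNAs miR-191 and miR-425 are cut from neighbouring hairpins on chromosome 9. Each hairpin can yield a mature RNA from its 5′ and from its 3′ side, called an arm. The arms were selected by name from the small RNAs counted in mouse testis, and the table held all 4 of them, among 20558 entries of which 730 are classed as miRNA and 576 carry the name of a mature miRNA. The pair was picked for description from the counts of these same 8 mice, with earlier results known. Levels and differences of the 4 arms are therefore given as descriptions, without p-values.

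The libraries came from testes of 8 adult C57Bl/6 males, 4 on the standard diet (SD mice M1N, M2N, TN1 and TN2) and 4 on a Western-like diet rich in sugar and butter (WD mice M1W, M2W, M3W and M5W). The labels call the former control and the latter experimental. Their rearing text, the same for all 8 mice, describes a high-fat diet from 4 weeks of age and mating at 4 months, and was not applied to the controls. The study's methods put the start of the diet at an earlier age. The labels name no altered genotype and no agent other than the diet. The labels do not say what M and TN stand for, nor that the mice came from separate litters or cages, so the spread between mice may be partly technical. Small RNAs were sequenced on a SOLiD instrument, and the deposited values are reads per small RNA.

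MicroRNAs are RNAs of about the length of the sequences printed here that guide Argonaute proteins to messenger RNAs, mainly through bases 2 to 8 from the 5′ end, the seed. The targets are then translated less or degraded. One arm of a hairpin is usually kept in Argonaute and the other is mostly lost, and hairpins that lie close together on a strand are often cut from a common primary transcript, although their mature arms may still differ in level. miR-191 is found in many tissues and has often been used as a reference for miRNA quantification by PCR. It has been studied in red blood cell maturation and in tumours. In human cells miR-425 is known to act on the messenger RNA of atrial natriuretic peptide.

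The 4 mature sequences identify the members, since they share no seed with each other. They are given as RefSeq lists them, with the seed in capitals.
mmu-miR-191-5p: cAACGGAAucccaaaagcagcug
mmu-miR-191-3p: gCUGCACUuggauuucguuccc
mmu-miR-425-5p: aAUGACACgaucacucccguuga
mmu-miR-425-3p: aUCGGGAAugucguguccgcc
Among 1679 mature mouse miRNAs of RefSeq, the seeds of miR-191-5p, miR-191-3p and miR-425-3p each occurred 1 time. The seed of miR-425-5p occurred in 2 of them, the other being miR-489-3p, which had no entry in the count table. Its sequence is shown for the shared seed, after which it departs from miR-425-5p.
mmu-miR-489-3p: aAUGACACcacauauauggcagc
Each of the 4 mature sequences matched the NCBIM37 genome (mm9) exactly 1 time. Matches with mismatches, which the authors' alignment allowed, were not searched.

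The hairpins show how each arm sits in its precursor, with the 5p and 3p arms in capitals.
Mir191: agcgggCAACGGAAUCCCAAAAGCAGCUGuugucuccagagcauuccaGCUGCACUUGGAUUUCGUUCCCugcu
Mir425: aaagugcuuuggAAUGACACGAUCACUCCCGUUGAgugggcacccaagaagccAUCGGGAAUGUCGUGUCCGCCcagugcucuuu
Matched to NCBIM37, the Mir191 hairpin of 74 bases lay on the plus strand at chr9:108470650-108470723 and the Mir425 hairpin of 85 bases at chr9:108471108-108471192. Between them lay 384 bases, and together they spanned 543 bases. The mature miR-191-5p occupied chr9:108470656-108470678 and miR-191-3p chr9:108470698-108470719, while miR-425-5p occupied chr9:108471120-108471142 and miR-425-3p chr9:108471161-108471181.

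In the GENCODE M1 annotation of that genome, both hairpins fell between the genes Ndufaf3, on the minus strand, and Dalrd3, which began 1030 bases after the end of Mir425 on the plus strand. Mir425 was annotated as a miRNA gene. At Mir191 the annotation held a miRNA gene on the opposite strand, CT010508.1, at chr9:108470626-108470745, which covered the whole hairpin. The RefSeq annotation of the later build GRCm38.p6 placed both hairpins inside the span of Dalrd3, a gene that encodes a factor of tRNA modification. The counting is not stated to use the strand, so reads of the opposite strand at Mir191 could not be told apart.

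**Figure D1:**
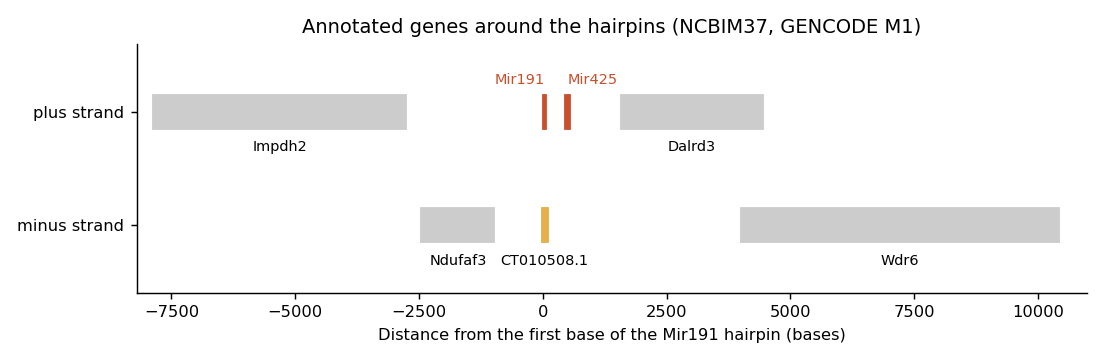
Genes around the 2 hairpins by strand, plotted by distance in bases from the first base of Mir191 (NCBIM37, GENCODE M1, with the hairpins placed by exact sequence match). Orange-red bars are the hairpins, 384 bases apart, the yellow bar is the minus-strand gene CT010508.1 and grey bars are protein-coding genes.

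Total counts ranged from 2064562 to 3253798 per mouse, and the miRNA class held 9.23 to 12.7% of them. At these depths 3 counts, taken as the smallest amount that can be shown, corresponded to 0.922 to 1.45 CPM, the count scaled to the size of the library. Such floors, and the intervals given with shares, cover counting error only, since PCR copies are not independent molecules. No 2 libraries agreed within sampling noise, the closest being TN1 and TN2 with a chi-square of 2.56 per degree of freedom. All 11 testis miRNAs listed as markers, miR-34c-5p the most abundant, were in the table with a mean of at least 10 counts. By this measure, which also grows with depth, M1N and M2N stood apart from the rest: pairs with either of them had 6.18 to 24.4, and pairs among the other 6 mice had 2.56 to 6.12. They were not close to each other, at 8.12, and M2N was closer to M2W (6.18), TN1 (7.17), M3W (7.64) and TN2 (7.73) than to M1N. Of 418 miRNA entries that passed the filter on low counts, 62 (14.8%) were higher in both M1N and M2N than in each of the other 6 mice. Since the labels name the SD mice in 2 ways, results are given against all SD mice, against M1N and M2N, and against TN1 and TN2, and these comparisons share the WD mice. All 4 arms passed the filter.

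miR-191-5p was among the most abundant miRNAs of these testes. Its level, in CPM scaled by TMM factors, was 6573 in M1N, 4796 in M2N, 3208 in TN1 and 2656 in TN2. Among WD mice it was 2614 in M1W, 3929 in M2W, 3276 in M3W and 2298 in M5W. M1N and M2N held the highest levels, and TN1 and TN2 lay within the range of the WD mice, so that the diet groups overlapped. The mean was 4308 ± 1761 CPM in SD mice and 3029 ± 725 CPM in WD mice (mean ± standard deviation, n = 4 each). M1N and M2N averaged 5685 CPM and TN1 and TN2 2932 CPM.

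In counts as deposited, miR-191-5p had 19178, 15043, 10183 and 5735 reads in M1N, M2N, TN1 and TN2, and 7952, 8959, 7110 and 7387 reads in M1W, M2W, M3W and M5W. At such counts, sampling alone would give a standard deviation of 0.0143 on the log2 scale, against 0.505 measured over the 8 mice. As a share of all miRNA reads of the mouse, miR-191-5p made up 5.50% in M1N (95% Wilson interval 5.43 to 5.58%) and 2.43% in M5W (2.38 to 2.49%), the highest and the lowest of the 8. The group means of this share were 4.05% ± 1.12 in SD mice and 2.88% ± 0.328 in WD mice.

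miR-191-3p, the other arm of the hairpin, was scarce. It reached 14.4 CPM in M1N, 16.3 in M2N, 8.51 in TN1 and 7.41 in TN2, and 8.22 in M1W, 10.5 in M2W, 5.53 in M3W and 6.22 in M5W. As for the 5p arm, M1N and M2N lay above each of the other 6 mice, and TN1 and TN2 fell among the WD mice. The means were 11.6 ± 4.35 CPM in SD mice and 7.62 ± 2.25 CPM in WD mice. These levels rest on 12 to 51 reads per mouse, at which counting alone gives a standard deviation of 0.277 on the log2 scale, against 0.55 measured.

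miR-425-5p had nearly the same level in all mice. It was 167 CPM in M1N, 144 in M2N, 141 in TN1 and 149.6 in TN2, and 150.9 in M1W, 156 in M2W, 134 in M3W and 153 in M5W. The highest mouse exceeded the lowest 1.25-fold, compared with 2.86-fold for miR-191-5p, and neither diet group nor the M1N and M2N pair stood apart. The means were 150.2 ± 11.5 CPM in SD mice and 148 ± 9.94 CPM in WD mice. Between 290 and 491 reads per mouse lay behind these values, and the measured standard deviation of 0.0967 on the log2 scale was close to the 0.071 of counting alone. As a share of miRNA reads it was 0.147% ± 0.0167 in SD mice and 0.144% ± 0.0219 in WD mice, with a mean of 0.135% in M1N and M2N and 0.159% in TN1 and TN2. On this scale the order of the pairs of SD mice is the opposite of that in CPM, where they averaged 155 and 145.

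miR-425-3p was 30.2 CPM in M1N, 17.2 in M2N, 11.7 in TN1 and 17.6 in TN2. In WD mice it was 13.1 in M1W, 18.4 in M2W, 13.4 in M3W and 14.3 in M5W. Only M1N stood above the rest, M2N lying below TN2 and M2W. The means were 19.2 ± 7.82 CPM in SD mice and 14.8 ± 2.46 CPM in WD mice, from 29 to 88 reads per mouse. Counting alone gives a standard deviation of 0.211 on the log2 scale at this depth, against 0.429 measured.

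**Figure D2:**
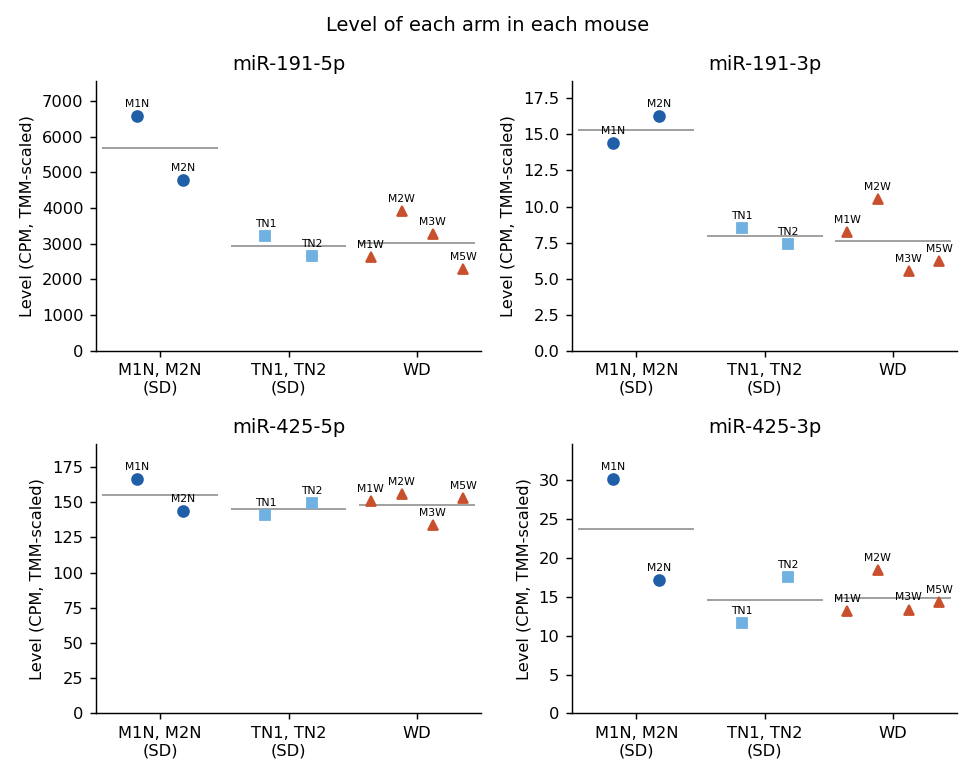
Level of each arm in each mouse, in CPM scaled by TMM factors, with the vertical axis from 0 and a grey line at the mean of each set (2 SD mice named M, 2 SD mice named TN, 4 WD mice). M1N and M2N lie above the other 6 mice for both arms of miR-191, with 4796 CPM in M2N and 3929 CPM in M2W for the 5p arm, whereas miR-425-5p stays between 134 and 167 CPM.

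The table also lists the precursors. The entry of the miR-191 precursor had 2 counts in M1N, 0 in M2N, 6 in TN1 and 1 in TN2, and 15 in M1W, 3 in M2W, 4 in M3W and 8 in M5W. The summed counts were 9 in SD mice and 30 in WD mice, with 4 of 8 mice at or under the floor of 3 counts. The entry of the miR-425 precursor had 2 to 8 counts in SD mice and 2 to 5 in WD mice, summing to 22 and 15. Neither precursor passed the filter, and no fold change is given for them.

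The comparison of the diets addressed whether the Western-like diet went with another level of these miRNAs in the testis. Against all 4 SD mice, the log2 fold change of WD mice in edgeR's quasi-likelihood fit was −0.51 (standard error 0.26) for miR-191-5p and −0.63 (0.30) for miR-191-3p. It was −0.02 (0.15) for miR-425-5p and −0.37 (0.27) for miR-425-3p. Without M1N the values were −0.23 for miR-191-5p and −0.058 for miR-425-3p, and without M2N that of miR-191-3p was −0.42. The median of all 418 miRNA entries was 0.03, with quartiles of −0.30 and 0.30. None of the 4 arms passed an adjusted p of 0.05, and neither did any of the 418 entries (0.0%). At an unadjusted p under 0.05 there were 69 entries by edgeR and 65 by DESeq2, which also had 0 entries after adjustment. Every WD mouse lay below every SD mouse for 0 of the 4 arms and for 12 of the 418 entries (2.87%).

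Against M1N and M2N alone, the log2 fold changes were −0.91 (0.22) for miR-191-5p, −1.01 (0.30) for miR-191-3p, −0.07 (0.18) for miR-425-5p and −0.68 (0.27) for miR-425-3p. In this fit 81 of all 418 entries (19.4%) passed the adjusted threshold, and 2 of the 4 arms, those of miR-191, were among them. The same 2 arms had every WD mouse below both SD mice, compared with 73 entries (17.5%), which hold the 62 entries named above by construction. The median of all entries in this comparison was −0.13. Because the arms were picked from the counts of the same mice, these calls are no test of them, and nothing is read from the shares.

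Against TN1 and TN2 alone, the 4 arms lay near 0. Their log2 fold changes were 0.05 (0.19) for miR-191-5p, −0.08 (0.33) for miR-191-3p, 0.03 (0.15) for miR-425-5p and 0.04 (0.26) for miR-425-3p, beside a median of 0.19 over all entries. None of the 4 passed the adjusted threshold in edgeR's fit, which 13 of the 418 entries did (3.11%), with 61 entries at an unadjusted p under 0.05. For none of the 4 did every WD mouse lie below both SD mice, as it did for 30 entries (7.18%). The lower mean of miR-191-5p in WD mice than in all SD mice was thus not seen in CPM against TN1 and TN2. As a share of miRNA reads, TN1 (3.36%) lay above all 4 WD mice, the highest of which was M3W at 3.17%, and TN2 (3.01%) lay among them. TN1 and TN2 averaged 3.19% and WD mice 2.88% on that scale. Between the pairs of SD mice themselves, the log2 difference of M1N and M2N from TN1 and TN2 was 0.94 for miR-191-5p, 0.95 for miR-191-3p, 0.09 for miR-425-5p and 0.67 for miR-425-3p, beside a median of 0.30 over all entries. Whether the names of the SD mice mark a batch is not stated, and in whole testis fewer cells of a type and less RNA per cell cannot be told apart.

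**Figure D3:**
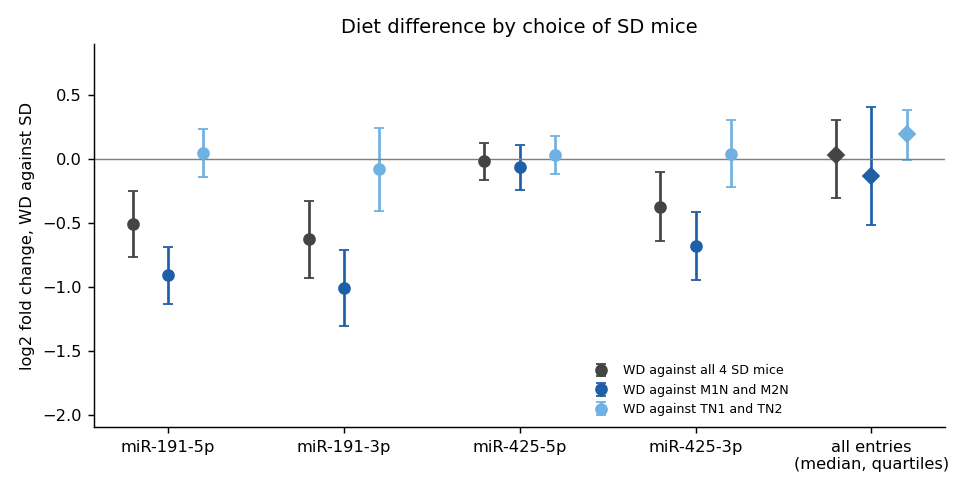
Fold changes of the 4 arms on the log2 scale, WD mice against all SD mice (black), M1N and M2N (dark blue) and TN1 and TN2 (light blue), with bars of 1 standard error. Diamonds give the median and quartiles of 418 miRNA entries. The arms of miR-191 move from −0.91 and −1.01 to 0.05 and −0.08 with the choice of SD mice, while miR-425-5p stays between −0.07 and 0.03.

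A ratio of 2 entries of a library needs no scaling. miR-191-5p exceeded miR-425-5p 39.5-fold in M1N, 33.4-fold in M2N, 22.8-fold in TN1 and 17.8-fold in TN2. In WD mice the ratio was 17.3 in M1W, 25.2 in M2W, 24.5 in M3W and 15.04 in M5W. M1N and M2N again held the highest values, so the cluster partners did not keep a fixed ratio across mice. On the log2 scale the mean ratio was 4.76 ± 0.52 in SD mice and 4.32 ± 0.37 in WD mice (n = 4 each). The difference of WD from SD mice was −0.43, which is smaller than the standard deviation of the SD mice, and it was −0.86 against M1N and M2N and −0.01 against TN1 and TN2.

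On the log2 scale the standard deviation over 8 mice was 0.478 for this ratio of the partners, 0.314 for miR-191-5p over miR-191-3p and 0.36 for miR-425-5p over miR-425-3p, and whether these differ was not tested. Within SD mice the last was 0.462, near the 0.522 of the partners. Counting alone gives 0.277 for miR-191-3p and 0.211 for miR-425-3p, against 0.0143 for miR-191-5p and 0.071 for miR-425-5p. Ratios to a 3p arm therefore carry more counting error than the ratio of the partners. miR-191-5p exceeded miR-191-3p 295-fold to 593-fold over the mice. Its minor arm made up 0.275% ± 0.0492 of the reads of both arms in SD mice and 0.255% ± 0.0613 in WD mice, a difference within the spread between mice. The lowest share was in M3W, at 0.168% (95% Wilson interval 0.0964 to 0.294%), and the highest in M2N, at 0.338% (0.257 to 0.444%).

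For miR-425 the 3p arm was a larger part of the hairpin's output. It made up 11.0% ± 3.18 of the reads of both arms in SD mice and 9.06% ± 1.10 in WD mice. M1N had the highest share, 15.3% (12.6 to 18.5%), and TN1 the lowest, 7.64% (5.60 to 10.4%), and the groups overlapped. The 5p arm exceeded the 3p arm 5.52-fold in M1N and 8.35-fold to 12.1-fold in the other mice. The log2 difference of this ratio in WD mice was 0.28 from all SD mice, 0.57 from M1N and M2N and −0.0066 from TN1 and TN2. With single mice left out, the first ranged from 0.086 without M1N to 0.46 without TN1. Between the minor arms, miR-191-3p stood at 0.414 to 0.944 of the reads of miR-425-3p, although their major arms differed by more than an order of magnitude.

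**Figure D4:**
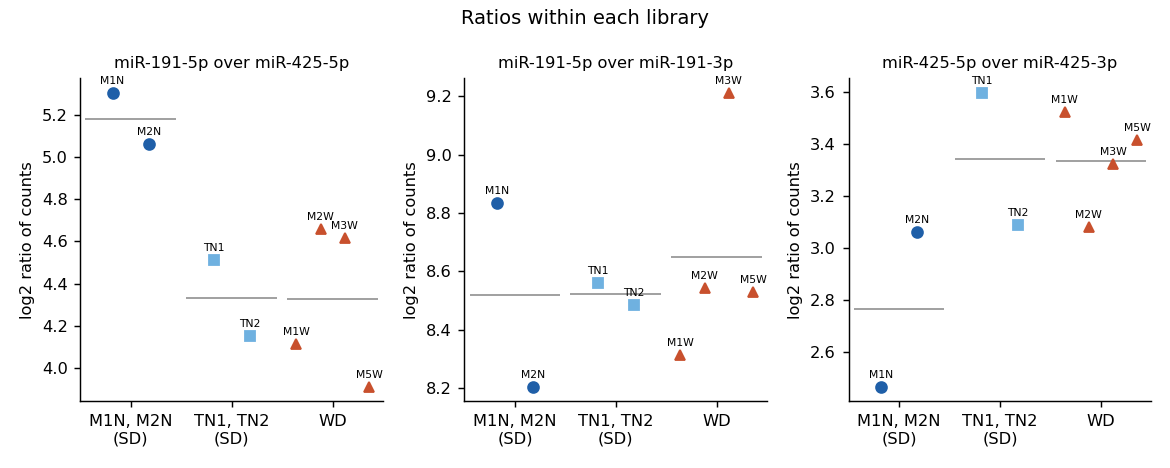
Ratios of counts on the log2 scale in each mouse, for miR-191-5p over miR-425-5p and for the 5p over the 3p arm of each hairpin, with a grey line at the mean of each set. In the left panel M1N and M2N (39.5-fold and 33.4-fold) lie above the other 6 mice, and in the middle panel the 3 sets overlap. In the right panel M1N is the lowest at 5.52-fold. The vertical axes differ and do not start at 0.

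Other miRNA pairs from shared clusters were used for comparison. Of 15 listed pairs, 10 had at least 10 counts of both members in every mouse. The standard deviation of their log2 ratio over 8 mice ranged from 0.109 to 0.598, with a median of 0.236, and that of miR-191-5p to miR-425-5p was 0.478. The pairs miR-143-3p with miR-145-5p (0.598) and miR-221-3p with miR-222-3p (0.536) varied more, and the other 8 varied less. Pairs with a low spread included miR-29a-3p with miR-29b-3p, which were held at 0.109, and the testis miRNAs miR-34b-5p and miR-34c-5p at 0.172. The pairs are not alike in all respects. Both miR-29b-1-5p and miR-29b-2-5p had entries, so miR-29b-3p can come from more than 1 hairpin. With a mean of 9.82 CPM, miR-222-3p brings more counting error to its pair. For 0 of the 10 pairs was the difference between WD and all SD mice larger in size than the −0.43 of miR-191-5p to miR-425-5p. That of miR-143-3p to miR-145-5p, miRNAs of smooth muscle, came nearest at 0.41. The −0.43 was −0.25 without M1N and −0.63 without TN2, and the other pairs were not examined with mice left out. Against M1N and M2N, 1 of the 10 was larger in size than −0.86, namely miR-143-3p to miR-145-5p at 1.04, and against TN1 and TN2, 8 of the 10 were larger in size than −0.01.

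By mean level over the 8 mice, miR-191-5p ranked 5 among 366 mature miRNAs that passed the filter, miR-425-5p 89, miR-425-3p 214 and miR-191-3p 261. The arms are 21 to 23 bases long, so their levels were compared without correction for length. Just above miR-191-5p (3669 ± 1422 CPM, n = 8) came miR-19b-3p (6037 ± 1005), a member of an oncogenic cluster, miR-34b-5p (4814 ± 534), known from germ cells, and miR-202-5p (4362 ± 1049), known from the gonads. Just below came miR-34a-5p (3597 ± 684), miR-145-5p (3572 ± 882) and miR-103-3p (3571 ± 922). The distance to miR-34b-5p, miR-202-5p and all 3 miRNAs below was less than the standard deviation of miR-191-5p between mice, so its order among these neighbours is not settled. In WD mice alone its mean of 3029 CPM lay under those of all 6 neighbours, and in M1N and M2N its mean of 5685 CPM lay above all 6.

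The spread between mice was large for miR-191-5p and small for miR-425-5p. Among 101 mature miRNAs with a mean of at least 300 counts, the standard deviation of log2 CPM over 8 mice had a median of 0.347. miR-191-5p, at 0.505, was exceeded by 18 of them. Its value was 0.434 with 25 miRNAs above it under column totals, and 0.388 with 24 above it with the miRNA class alone as library size. miR-425-5p, at 0.0967, was the lowest but 1, only miR-15b-5p having a smaller value of 0.0861. With the miRNA class alone, the value of miR-425-5p was 0.154 and 10 miRNAs were below it, so its place depends on that choice, whereas under column totals and upper-quartile factors 1 miRNA was below it as before.

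Since miR-191 has often served as a reference, it was set beside 13 other miRNAs commonly used for this purpose that passed the filter. Their standard deviations ranged from 0.176 to 0.774, with a median of 0.363, and 10 of the 13 varied less than miR-191-5p. The most abundant of them, miR-103-3p, miR-16-5p, let-7a-5p and miR-24-3p, had 0.363, 0.176, 0.285 and 0.40. None of the 13 varied less than miR-425-5p under TMM factors, column totals or upper-quartile factors, but 2 of the 13 did with the miRNA class alone as library size. On that scale 11 of the 13 varied less than miR-191-5p. The reference small RNA SNORD61, with 3.86 CPM, had 0.552 at few counts.

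**Figure D5:**
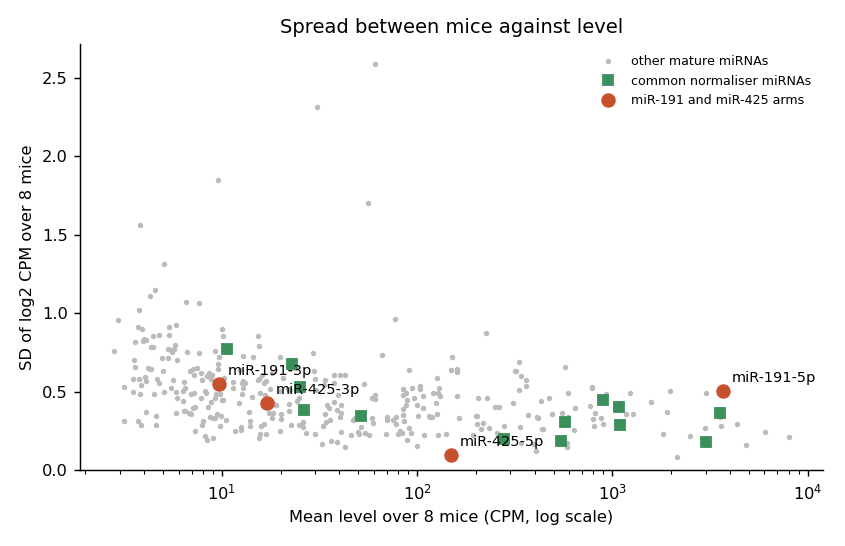
Standard deviation of log2 CPM over 8 mice against mean level (CPM, log axis) for 366 mature miRNAs under TMM factors, with the 4 arms in red and 13 common reference miRNAs as green squares. miR-425-5p, at 0.0967, lies at the lower edge, and miR-191-5p, at 0.505, lies above 10 of the 13 references.

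The miRNAs whose pattern over the 8 mice was nearest to miR-191-5p were miR-140-3p, miR-204-5p and miR-547-3p. Likeness was the root mean square difference of log2 CPM after each miRNA was centred on its own mean, and it was 0.0944, 0.109 and 0.119. miR-140-3p averaged 573 CPM in M1N and M2N, 264 in TN1 and TN2 and 303 in WD mice, and is best known from cartilage. miR-204-5p averaged 506, 265 and 276 CPM, and miR-547-3p 309, 166 and 171 CPM in the same order. Among 365 miRNAs compared, the arm partner miR-191-3p came at place 58 with 0.293, miR-425-3p at 62 with 0.307 and miR-425-5p at 151 with 0.447, where the median was 0.508. Counting alone gives a log2 standard deviation of 0.277 for miR-191-3p, 0.211 for miR-425-3p and 0.071 for miR-425-5p. This adds to the distance of a scarce arm, and the places were not corrected for it. The 8 points share their libraries and depth, and no p-value is attached to the likeness.

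Markers of other cell types were read beside these values, in CPM from column totals without the TMM factors used for the arms. The summed level of 6 miRNAs of stroma and smooth muscle, all present, was 5762 to 6345 CPM in M1N and M2N, 4811 to 5220 CPM in TN1 and TN2 and 4896 to 8638 CPM in WD mice. Of 6 blood miRNAs, 5 were in the table, miR-223-3p the most abundant, with 345 to 448, 283 to 330 and 211 to 469 CPM. Of 3 muscle miRNAs, 2 were in the table, with 32.9 to 38.7, 45.8 to 48.4 and 26.9 to 51.5 CPM. The liver miRNA miR-122-5p was at 0 in M1N, M2N and all WD mice and at 13.6 to 15.8 CPM in TN1 and TN2. The 11 testis miRNAs summed to 20145 to 21030, 20110 to 23187 and 20046 to 24387 CPM. In the stroma and blood lists both M1N and M2N lay above TN1 and TN2 but within the range of WD mice on this scale. Their position under TMM factors was not examined. The most abundant of the stroma list, miR-145-5p, averaged 4004 CPM in M1N and M2N under TMM factors. It averaged 2869 CPM in TN1 and TN2 and 3708 CPM in WD mice. The part of these lists in the levels of miR-191 was not tested.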

How the data were processed

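The deposited values are raw counts per small RNA, with 1 column per mouse. To make them, the authors cut each SOLiD read where the adaptor began, otherwise after 31 bases, mapped it to mm9 using Bowtie with up to 2 mismatches, and assigned it from miRBase 18, Rfam and an ncRNA database. The submitters' processing notes also name DESeq, with no role. The counting program, its use of strand and its treatment of ambiguous reads are not given in the sources used here. All 8 sample columns were used (0 unused). Groups came from the labels.

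The counts of all entries were fitted with edgeR 4.0.16 (R 4.3.3) with TMM factors, filterByExpr (minimum count 10, minimum total 15), and the quasi-likelihood test with diet as the only term, two-sided, with Benjamini-Hochberg adjustment over the miRNA class. The filter, set on all 8 mice, left 16955 entries. Standard errors were derived from the F statistic. DESeq2 1.42.0 served as an alternative, and matplotlib 3.10.9 was used for plotting. Positions are exact matches to NCBIM37, and sequences come from RefSeq (GRCm38.p6).

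The members, the lists and the naming rule were chosen with earlier results of these data known. Named were the 4 arms, their precursors, entries sharing a seed, the 3 neighbours in level above and below miR-191-5p, the 3 nearest in pattern, and up to 4 examples of each list. Cluster pairs with the extreme spreads, the pair nearest in its diet difference and miR-15b-5p were named after their values were seen. Alternatives covered scaling, filtering, test, choice of SD mice, replicate number and each mouse left out.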

Additional observations from a re-analysis of the deposited data

Results flagged for a closer look

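Each arm's CPM, share of miRNA reads and ratios were examined in both diet groups for a mouse far from the others (Dixon's ratio of gap to range, at the 95% level). Of 24 groups of 4 mice examined, 0 held such a mouse, where chance alone would give about 1 in 20. For both arms of miR-191, M1N and M2N are the highest 2 mice, and this measure, made for a single distant value, cannot register a pair.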

How the results depend on the processing

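The log2 fold change of miR-191-5p, −0.51 against all SD mice, was between −0.43 and −0.51 under column totals, upper-quartile factors, DESeq2, the miRNA class alone and both other filters. It was −0.91 against M1N and M2N and 0.047 against TN1 and TN2, and ranged from −0.68 to −0.23 with single mice left out, the latter without M1N. That of miR-425-5p stayed between −0.07 and 0.04 under all alternatives and −0.05 to 0.04 with single mice left out. Its sign varied around 0. That of miR-191-3p ranged from −0.80 to −0.42 and that of miR-425-3p from −0.56 to −0.058 with single mice left out, the smallest in size without M2N and without M1N. The log2 ratio of miR-191-5p to miR-425-5p differed by −0.63 to −0.25 with single mice left out. The number of miRNA entries with an adjusted p under 0.05 was 0 with all mice under each scaling, test and filter, 81 against M1N and M2N, 13 against TN1 and TN2, and 0 to 7 with single mice left out, the highest without M2N, with 4 without M1N, 4 without TN2 and 1 without M3W. With the replicate block on M1N, M1W, M2N and M2W it was 23, and 20 for the same 4 mice with no block, a fit chosen after seeing the data. In the block fit miR-191-5p had −0.81. These numbers name different animals. The difference between mice 1 and 2 had a correlation of r = −0.04 between diets over 418 entries. That is a single difference per diet, so it cannot decide whether samples with the same number were handled together, which was not tested. The cause of these changes was not tested. Depth limits miR-191-3p, miR-425-3p and the precursors, whose counts per mouse reach at most 88.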
